A study of Homo sapiens with 30 samples.

Results

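The interferon-stimulated genes followed here are a list of 39 genes that human cells are known to switch on in response to interferon. A probe set is the group of array probes that reports 1 value, and where a gene had several, the brightest on average across all 30 arrays was used. Of the 39 genes 38 had a probe set among the 19775 genes named on the array, and *STAT2* was not listed with one. The samples were LOUCY cells, an established human line from an early thymocyte progenitor leukemia (ETP-ALL), on Affymetrix HG U133 Plus 2.0 arrays, with 3 arrays in each of 10 groups. LOUCY cells with a doxycycline-inducible MEF2C construct (the MEF2C line) were grown in 3 cultures (medium, OP9-GFP stroma and OP9-DL1 stroma), each without dox and with dox at 0.5 μg/mL for 24 h. A line with an inducible ICN construct (intracellular NOTCH1, the active form of the receptor; the ICN line) and a line with both constructs (the MEF2C+ICN line) were grown in medium without and with dox, for a time that the sources used here do not give. All groups are LOUCY derivatives made by lentiviral transduction and sorting, the MEF2C of the construct is codon-optimized and lacks its beta transactivation domain, and OP9 cells are mouse stroma whose OP9-DL1 form displays the Notch ligand Delta-like 1. No array held dox-treated cells without a construct, so dox and the induced protein cannot be told apart, and the labels do not say whether the 3 arrays of a group were independent cultures, so the p-values rest on a spread between arrays that may be technical. In such bulk samples fewer expressing cells and less RNA per cell cannot be told apart.

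Type I interferons bind the receptor pair *IFNAR1* and *IFNAR2*, which signals through the kinases JAK1 and TYK2. STAT2 and IRF9 are parts of ISGF3, the complex that binds interferon-stimulated response elements (ISRE) in the promoters of many interferon-stimulated genes, while gamma-activated sites (GAS) serve the response to interferon-gamma. The products block viral entry and translation, tag proteins with ISG15, sense viral RNA and load peptides on MHC class I molecules, and many of these genes also keep a low level in cells that meet no interferon.

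Promoter sequences of the members on which the results turn are shown to place their response elements. RefSeq windows (GRCh38.p14, 250 bases before to 50 after each annotated start) were at hand for 31 of the 39 genes. The ISRE core was searched as GAAANNGAAA on both strands (TTTCNNTTTC on the other), and hits may share bases. It stood in a window of 22 of these 31 genes (71.0%), and in 1195 of all 27305 genes with a window (4.38%). The GAS letters TTCNNNGAA, which read the same on both strands, stood in a window of 11 of the 31 (35.5%) and of 9.38% of all genes. A match is a description of letters and not a measured site. The runs below span 170 bases before to 10 after the first annotated start on the strand of the gene, with ISRE cores in capitals (for *IRF1*, which holds no ISRE core, the GAS letters). *IFI44L* and *IFI44*, neighbours on chromosome 1, are shown because they fell by over 1.5 with joint induction, *IFI6* and *IRF1* because they rose by over 0.7 with ICN, *IFIT1* and *IFIT3*, of 1 family on chromosome 10, because they moved in opposite directions, and *IFITM1* and *IFITM3* because they fell in each culture.
IFI44L: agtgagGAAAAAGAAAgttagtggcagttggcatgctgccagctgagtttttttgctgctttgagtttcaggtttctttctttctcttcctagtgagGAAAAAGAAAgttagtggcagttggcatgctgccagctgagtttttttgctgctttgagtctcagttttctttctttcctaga
IFI44: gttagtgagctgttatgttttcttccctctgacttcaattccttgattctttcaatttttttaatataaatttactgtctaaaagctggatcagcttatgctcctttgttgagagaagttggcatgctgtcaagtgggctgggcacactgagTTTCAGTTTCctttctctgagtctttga
IFI6: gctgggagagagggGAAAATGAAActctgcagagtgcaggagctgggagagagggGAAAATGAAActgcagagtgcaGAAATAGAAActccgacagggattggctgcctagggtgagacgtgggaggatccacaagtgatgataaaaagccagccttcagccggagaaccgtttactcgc
IRF1: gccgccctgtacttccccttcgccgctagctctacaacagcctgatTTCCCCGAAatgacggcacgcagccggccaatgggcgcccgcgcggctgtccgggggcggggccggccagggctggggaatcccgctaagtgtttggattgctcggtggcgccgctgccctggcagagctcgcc
IFIT1: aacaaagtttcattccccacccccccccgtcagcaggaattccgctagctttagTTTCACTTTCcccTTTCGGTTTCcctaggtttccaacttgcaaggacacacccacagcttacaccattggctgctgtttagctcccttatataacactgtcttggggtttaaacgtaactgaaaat
IFIT3: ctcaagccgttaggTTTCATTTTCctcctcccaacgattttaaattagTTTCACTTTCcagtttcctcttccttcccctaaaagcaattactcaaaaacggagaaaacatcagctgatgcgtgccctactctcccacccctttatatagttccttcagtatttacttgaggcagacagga
IFITM1: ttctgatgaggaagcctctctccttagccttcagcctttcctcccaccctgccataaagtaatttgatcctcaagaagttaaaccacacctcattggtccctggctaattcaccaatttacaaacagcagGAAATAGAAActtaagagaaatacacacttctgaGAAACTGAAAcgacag
IFITM3: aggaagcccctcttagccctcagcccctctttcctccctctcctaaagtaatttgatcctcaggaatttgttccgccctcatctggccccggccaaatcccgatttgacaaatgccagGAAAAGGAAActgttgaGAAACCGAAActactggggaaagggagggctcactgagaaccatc
The runs lie at chr1:78620278-78620457 (plus strand) for *IFI44L*, chr1:78649619-78649798 (plus strand) for *IFI44*, chr1:27672183-27672362 (minus strand) for *IFI6*, chr5:132490764-132490943 (minus strand) for *IRF1*, chr10:89392453-89392632 (plus strand) for *IFIT1*, chr10:89327827-89328006 (plus strand) for *IFIT3*, chr11:313870-314049 (plus strand) for *IFITM1* and chr11:320851-321030 (minus strand) for *IFITM3*. *IFI6* holds 3 ISRE cores, beginning 156, 115 and 93 bases before the start, and *IFI44L* holds 2, at 164 and 73 bases before it. *IFIT1* and *IFIT3* each hold 2 cores, at 116 and 103 bases and at 156 and 122 bases before their starts.

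The values are log2 intensities after RMA, so a difference of 1 is a doubling, and levels of different probe sets are not set against each other. Of the 38 measured members 28 had a group mean of at least 5 in every group, and 6 (*MX1*, *OAS2*, *RSAD2*, *ISG20*, *IFI27* and *XAF1*) stayed under 5 in all 10 groups. Another 4, *IFIT3*, *OAS1*, *OASL* and *IFI44L*, lay on both sides of 5. The files carry no detection call, and RMA tends to shrink the differences of such dim probe sets, which include *IFI44L* and *IFIT3* below. A member was called where its adjusted p in limma was under 0.05. In the 12 comparisons of groups, *IFIT5*, *MX1*, *OAS2*, *OASL*, *EIF2AK2* and *XAF1* were never called, while *IFITM2* was called in 10 comparisons, 8 of them lower.

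**Figure D1:**
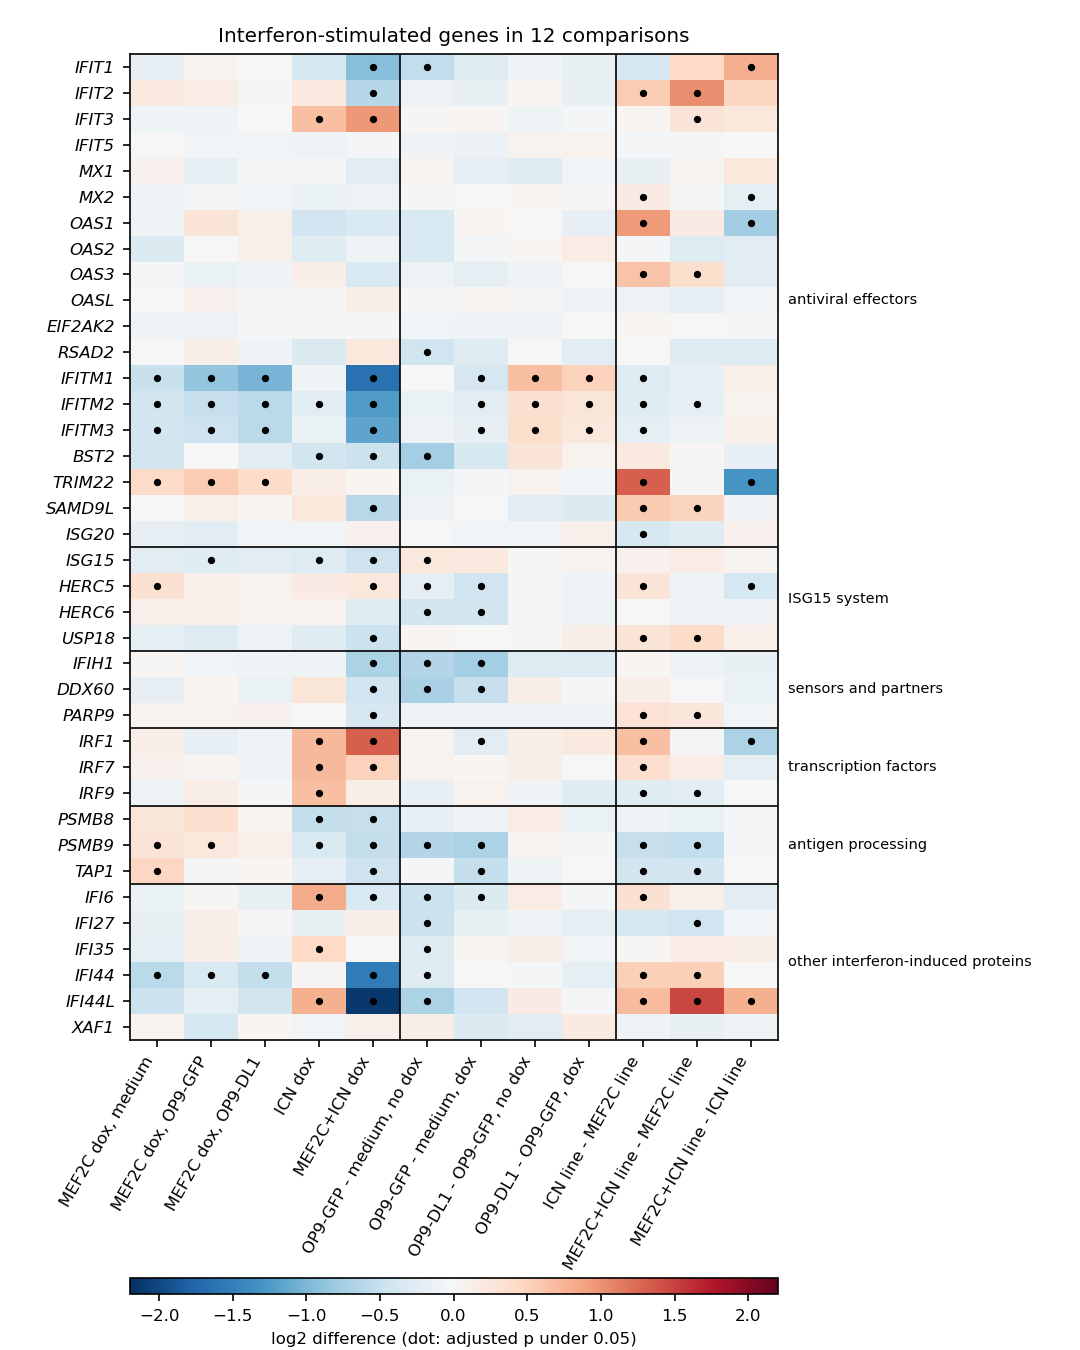
Log2 difference (color) of the 38 measured interferon-stimulated genes (rows, by role) in 12 comparisons of 3 against 3 arrays (columns), with a dot where the adjusted p was under 0.05. The column for MEF2C+ICN dox holds 18 dots for lower and 4 for higher members, and the 3 *IFITM* genes carry dots in each of the 3 MEF2C dox columns.

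Induction of MEF2C lowered the *IFITM* genes, which encode membrane proteins that block viral fusion, in each of the 3 cultures. Over 9 arrays with dox against 9 without, 6 of the 38 members fell (15.8%, against 3.79% of all genes) and 1 rose (2.63%, against 3.4%), and the median difference was -0.04 for the members and -0.01 for all genes. *IFITM1* read 12.11, 12.04 and 12.06 in medium without dox and 11.60, 11.53 and 11.60 with dox, a difference of -0.49 ± 0.07 (SE, n = 3 and 3, adjusted p = 1.1e-05). On OP9-GFP it went from 12.19, 12.08 and 11.97 to 11.26, 11.19 and 11.17 (-0.87 ± 0.07, adjusted p = 7.5e-10). On OP9-DL1 it went from 12.89, 12.73 and 12.60 to 11.71, 11.71 and 11.69 (-1.03 ± 0.07, adjusted p = 3.8e-11). The arrays with and without dox did not overlap in any culture, and the 3 arrays on OP9-DL1 without dox were the highest of the series for this gene. Over the 3 cultures *IFITM1* fell by 0.80 ± 0.13 (adjusted p = 0.00025), *IFITM2* by 0.51 ± 0.07 and *IFITM3* by 0.49 ± 0.07. Each of the 3 genes is read by a single probe set of a kind that can match more than 1 transcript, so their falls may not be separate measurements.

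*IFI44*, an interferon-induced cytoplasmic protein, was the remaining member that fell in each culture. It read 7.65, 7.79 and 7.61 in medium without dox and 6.96, 7.03 and 7.27 with dox, so the groups did not overlap (-0.59 ± 0.09, adjusted p = 6.5e-05). It differed by -0.33 on OP9-GFP stroma and by -0.53 on OP9-DL1 stroma, and its second probe set also fell in medium (-0.45, adjusted p = 0.0039). *TRIM22*, a ubiquitin ligase that restricts several viruses, was the only member that rose in each culture. It read 8.34, 8.53 and 8.39 without dox and 8.64, 8.88 and 8.99 with dox in medium, 8.31, 8.39 and 8.11 against 8.83, 8.82 and 8.81 on OP9-GFP, and 8.27, 8.43 and 8.36 against 8.77, 8.75 and 8.76 on OP9-DL1. The rise was 0.46 ± 0.06 over the 3 cultures (adjusted p = 1.2e-05), and the lowest array with dox lay above the highest without it. *ISG15*, the ubiquitin-like modifier, and *USP18*, the protease that removes it, were lower by 0.25 ± 0.07 (adjusted p = 0.044) and 0.21 ± 0.06 (adjusted p = 0.042), with overlapping arrays. The count of 7 called members went to 5 whichever replicate number was left out.

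Some cell type markers moved beside these genes. The 10 measured markers of plasmacytoid dendritic cells, 6 of them under 5 in all groups, had a mean level of 4.61 to 4.71 per array in medium without dox and 4.85 to 4.88 with dox, and of 4.54 to 4.73 and 5.01 to 5.15 on OP9-GFP. Of the 10 only *JCHAIN* was called (2.41 ± 0.11 in medium and 4.41 ± 0.11 on OP9-GFP). It is 10% of the list, against 5.03% of all genes higher in medium and 3.03% on OP9-GFP. The median difference was -0.01 in medium and 0 on OP9-GFP. Of the 14 markers of LOUCY cells 5 fell in medium (35.7%, against 3.58% of all genes) and 0 rose (against 5.03%). In medium their mean level went from 8.23 to 8.27 without dox to 7.95 to 8.0 with dox. Over the 3 cultures 9 fell (64.3%, against 3.79%), on OP9-GFP 6 (42.9%, against 4.58%) and on OP9-DL1 8 (57.1%, against 3.33%). The list includes *CD3D* and *CD5*, which the paper reports as repressed by MEF2C. The part of these markers in the results was not tested.

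In medium alone 4 members rose (background 5.03%) and 4 fell (3.58%). Beside *TRIM22* the rises were *TAP1*, the peptide transporter of antigen processing (0.46 ± 0.08), *HERC5*, the ligase that attaches ISG15 (0.34 ± 0.07), and *PSMB9*, an immunoproteasome subunit (0.28 ± 0.06). On OP9-GFP 2 members rose (3.03%) and 5 fell (4.58%), and on OP9-DL1 1 rose (2.57%) and 4 fell (3.33%). The count on OP9-GFP went from 7 to 4 without replicate 2 of either group. The dox effect on OP9-GFP differed from that in medium for 1 lower member, *TAP1* (-0.50 ± 0.11, adjusted p = 0.03; background 0.389% lower and 0.101% higher). That call was lost without any 1 of 8 of the 12 arrays. *TAP1* read 8.34, 8.54 and 8.60 against 9.03, 8.86 and 8.98 with dox in medium, and 8.46, 8.55 and 8.38 against 8.43, 8.42 and 8.42 on OP9-GFP. Between OP9-DL1 and OP9-GFP 0 of 38 dox effects differed in limma (background 0.0759% lower and 0.0556% higher), and 0 had an unadjusted p under 0.05. The members with the largest such differences were *XAF1* (0.43 ± 0.22, adjusted p = 0.66) and *PSMB8* (-0.31 ± 0.20, adjusted p = 0.75).

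**Figure D2:**
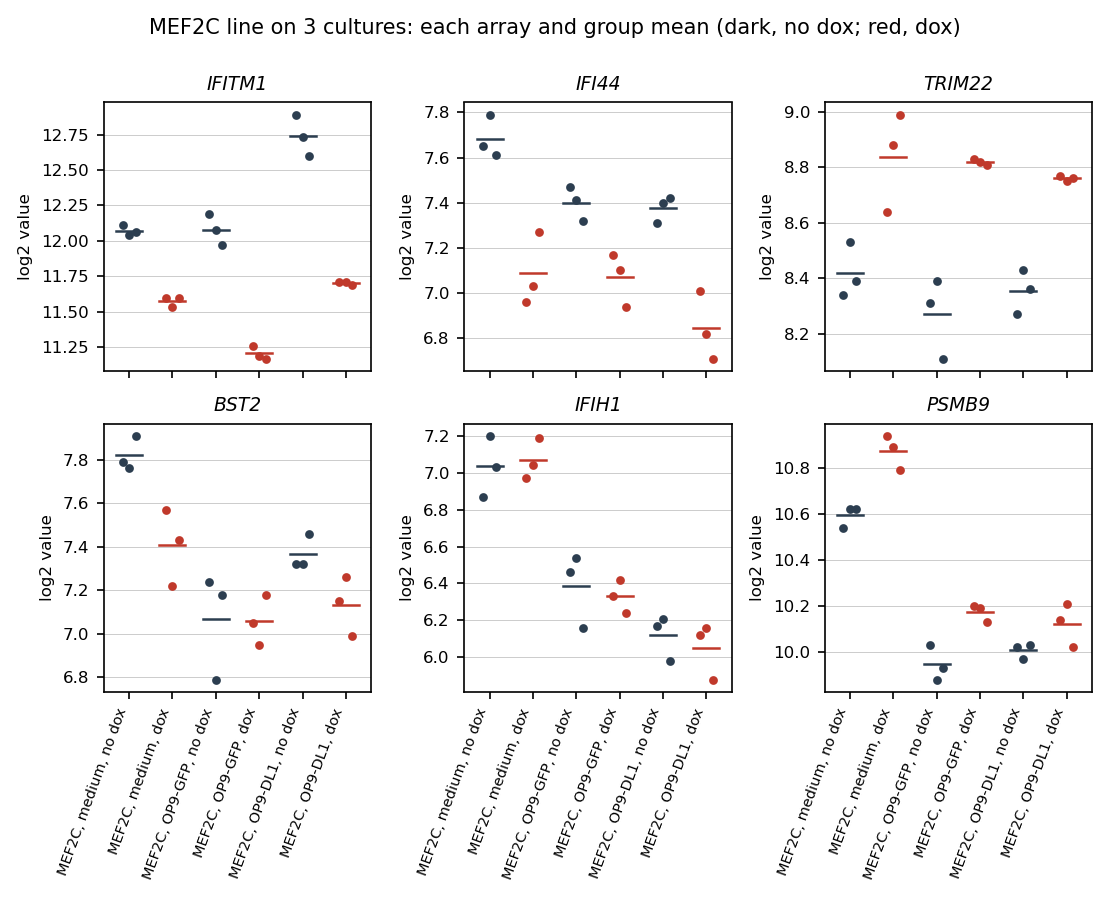
Log2 values of 6 members in each array of the MEF2C line (points) with the group mean (line), without dox (dark) and with dox (red), by culture. *IFITM1* and *IFI44* sit lower and *TRIM22* higher with dox in each culture, and *BST2*, *IFIH1* and *PSMB9* sit lower on stroma than in medium in the arrays without dox.

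Induction of ICN alone raised the 3 interferon regulatory factors on the list (*IRF1*, *IRF7* and *IRF9*). Of the 38 members 7 rose (18.4%, against 6.44% of all genes) and 5 fell (13.2%, against 9.42%), with a median of -0.05 (all genes, -0.03). *IRF1*, an activator of interferon and MHC genes, went from 7.87, 7.82 and 7.83 to 8.42, 8.63 and 8.64 with dox (0.72 ± 0.08, adjusted p = 1.7e-07). *IRF7*, the factor that drives interferon-alpha genes, went from 7.2, 7.33 and 7.11 to 7.94, 7.81 and 8.03 (0.71 ± 0.09, adjusted p = 1.4e-06). *IRF9*, the DNA-binding part of ISGF3, rose by 0.67 ± 0.07 (adjusted p = 2.4e-07). The arrays of the groups did not overlap for any of the 3.

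The other rises with ICN were of *IFIT3*, 1 of the 19 antiviral effectors (5.26%, against 6.44% of all genes), and of 3 of the 6 other interferon-induced proteins (50%). *IFI6*, a mitochondrial and endoplasmic reticulum protein with antiviral activity, had the largest rise, from 8.84, 8.84 and 8.94 to 9.61, 9.72 and 9.72 (0.81 ± 0.08, 1.75-fold, adjusted p = 5.2e-08). *IFI44L*, a relative of *IFI44*, went from 4.88, 4.84 and 4.83 to 5.83, 5.28 and 5.83 (0.79 ± 0.19, adjusted p = 0.0045). *IFIT3*, a partner of the RNA-binding IFIT proteins, rose by 0.67 ± 0.09 (adjusted p = 7.1e-06), and its dimmer second probe set by 1.98 (adjusted p = 8.9e-10). *IFI35* rose by 0.44 ± 0.08. The falls were -0.53 ± 0.14 for *PSMB8* and -0.33 ± 0.06 for *PSMB9*, both immunoproteasome subunits, -0.41 ± 0.13 for *BST2*, which tethers budding virions, -0.29 ± 0.08 for *ISG15* and -0.25 ± 0.06 for *IFITM2*. *IFI44* stood at 8.22, 8.22 and 8.20 without dox and 8.26, 8.21 and 8.25 with it (0.03 ± 0.09, adjusted p = 0.91).

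When MEF2C and ICN were induced together, most of the called members were lower. Of the 38 members 18 fell (47.4%, against 10.9% of all genes) and 4 rose (10.5%, against 5.84%), and the median was -0.33 for the members and 0.02 for all genes. *IFI44L* fell most, from 5.60, 5.59 and 5.71 to 3.91, 3.31 and 3.30 (-2.13 ± 0.19, 4.38-fold, adjusted p = 2.2e-09). *IFITM1* went from 11.85, 11.92 and 11.90 to 10.25, 10.17 and 10.29 (-1.65 ± 0.07, 3.14-fold, adjusted p = 3.6e-16). *IFI44* went from 8.13, 8.23 and 8.24 to 6.87, 6.61 and 6.53 (-1.53 ± 0.09, 2.89-fold, adjusted p = 8.2e-13). The groups were far apart for each of these, and the levels of *IFITM1* with dox were the lowest of the 30 arrays. The uninduced level of *IFI44L* in this line was 1.47 ± 0.19 above that of the uninduced MEF2C line (adjusted p = 1.7e-06), so its fall began from a higher level, and with dox it lay near the 3.47, 3.75 and 3.85 of the induced MEF2C line.

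**Figure D3:**
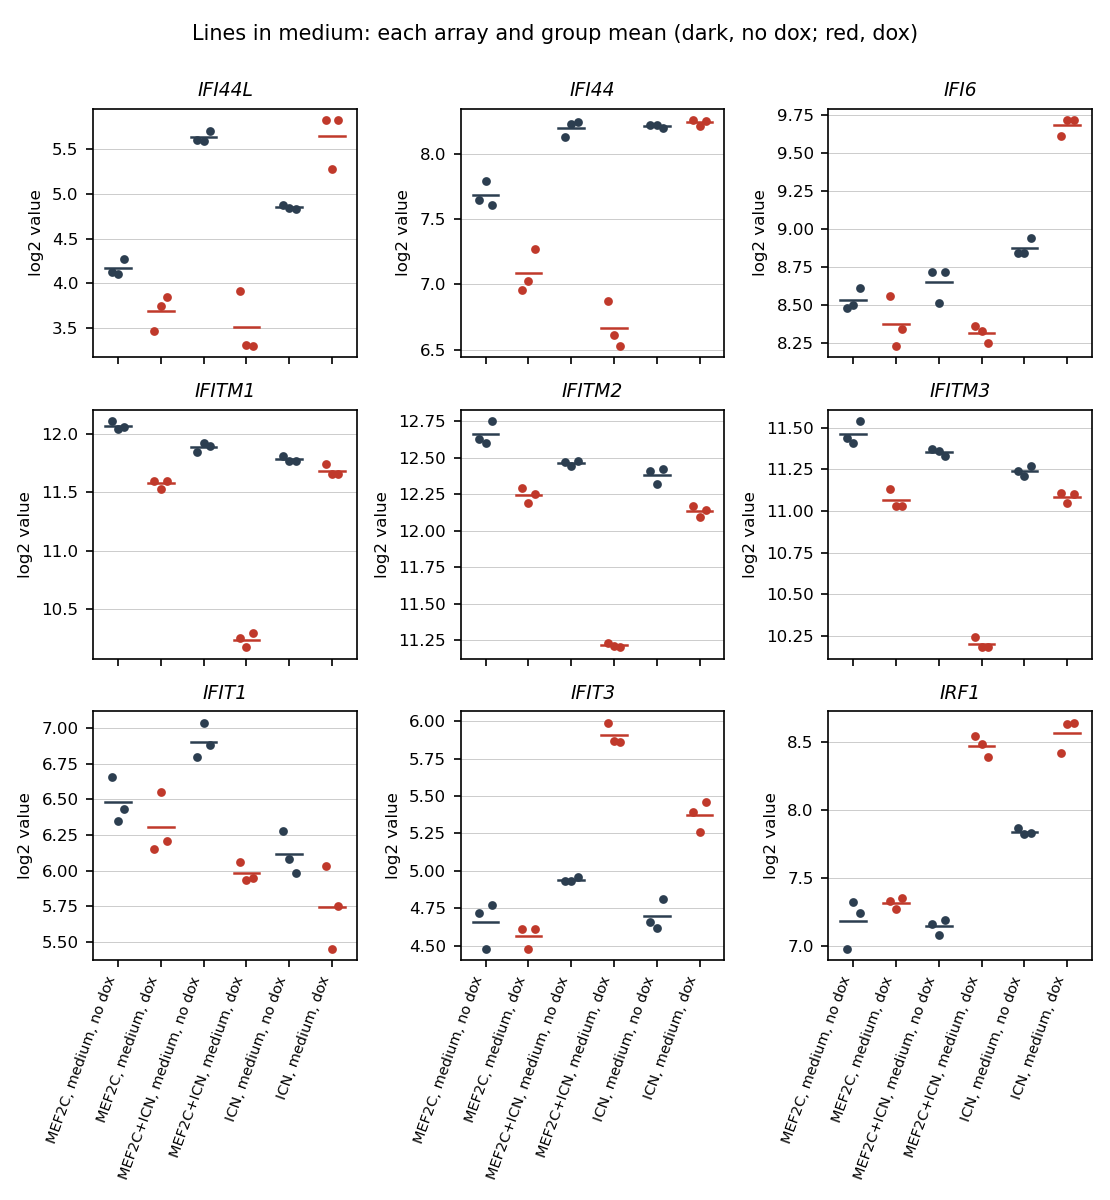
Log2 values of 9 members in each array grown in medium (points) with the group mean (line), without dox (dark) and with dox (red), for the MEF2C, MEF2C+ICN and ICN lines. With dox the MEF2C+ICN line has the lowest group mean for *IFITM1*, *IFITM2*, *IFITM3*, *IFI44* and *IFI44L* and the highest for *IFIT3*, and *IFI6* sits highest in the ICN line with dox.

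By role, 7 of the 19 antiviral effectors fell with joint induction (36.8%, against 10.9% of all genes) and 1 rose (5.26%, against 5.84%). *IFITM2* fell by 1.25 ± 0.06 (adjusted p = 2.6e-15) and *IFITM3* by 1.16 ± 0.05 (adjusted p = 5.6e-15), and among the IFIT genes *IFIT1*, which binds viral RNA caps, fell by 0.93 ± 0.15 (adjusted p = 6.6e-05) and *IFIT2* by 0.63 ± 0.16 (adjusted p = 0.0091; 0.052 without replicate 3 of the dox group). *IFIT3* rose instead, from 4.93, 4.93 and 4.96 to 5.99, 5.87 and 5.86 (0.96 ± 0.09, adjusted p = 1e-08), and by 2.24 in its second probe set (adjusted p = 4.2e-11). *SAMD9L*, a growth and translation inhibitor, fell by 0.61 ± 0.09 and *BST2* by 0.47 ± 0.13. For *SAMD9L* the probe set of largest variance gave no call (adjusted p = 0.23).

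Of the 4 genes of the ISG15 system 2 fell (50%, against 10.9% of all genes), *USP18* (-0.47 ± 0.10) and *ISG15* (-0.45 ± 0.08). The 1 that rose (25%, against 5.84%) was *HERC5* (0.24 ± 0.07). All 3 sensors and partners fell (against 10.9% of all genes). *IFIH1*, the RNA sensor MDA5, went from 6.75, 7.02 and 7.0 to 6.25, 6.30 and 6.15 (-0.69 ± 0.12, adjusted p = 0.00012), *DDX60*, a helicase that aids RNA sensing, fell by 0.43 ± 0.10 and *PARP9*, a partner of DTX3L, by 0.35 ± 0.08. All 3 antigen processing genes fell (against 10.9% of all genes), *PSMB9* by 0.52 ± 0.06, *PSMB8* by 0.51 ± 0.14 and *TAP1* by 0.45 ± 0.08. These roles hold only 3 or 4 genes, so 1 call moves their shares by a lot. *IFI6* fell by 0.33 ± 0.08 (adjusted p = 0.0055), from 8.72, 8.51 and 8.72 to 8.36, 8.33 and 8.25. Like *IFI44L*, the fallen *IFIT2*, *SAMD9L*, *USP18*, *PARP9* and *IFI44* were called higher in this uninduced line than in the uninduced MEF2C line. The mean of *IFIT2* with dox (6.25) stayed above the MEF2C line in medium without (5.85) and with dox (6.06). *USP18* (7.58) lay between them (7.66 and 7.43). *SAMD9L* (6.35 against 6.47 and 6.46), *PARP9* (6.92 against 7.01 and 7.08) and *IFI44* (6.67 against 7.68 and 7.09) lay below both.

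The transcription factors went the other way, with 2 of 3 higher (66.7%, against 5.84% of all genes) and 0 lower (against 10.9%). *IRF1* rose from 7.16, 7.08 and 7.19 to 8.54, 8.48 and 8.39 (1.32 ± 0.08, 2.5-fold, adjusted p = 9e-13), which overlapped the arrays of the induced ICN line, and its second probe set rose by 1.15 (adjusted p = 4.9e-11). *IRF7* rose by 0.51 ± 0.09 (adjusted p = 0.00011), and *IRF9* differed by 0.13 ± 0.07 without a call. Of the 15 fallen members with a promoter window 13 held an ISRE core, against 2 of the 3 that rose and 7 of the 12 that were not called. These counts are given as a description with no test, and a core stood in the windows of both *IFIT1*, which fell, and *IFIT3*, which rose.

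**Figure D4:**
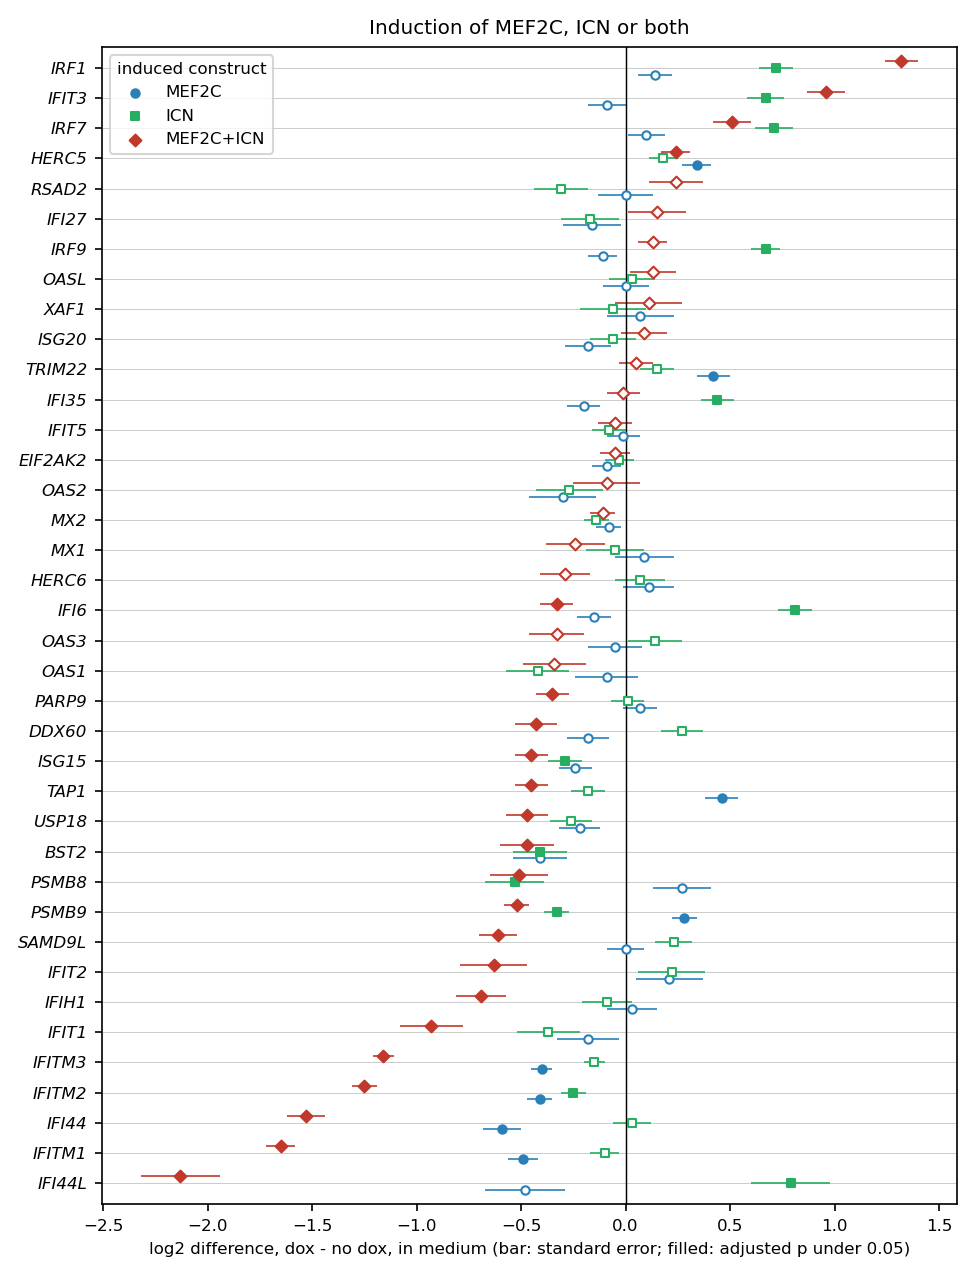
Log2 difference between dox and no dox in medium for each of the 38 members (rows, ordered by the effect of joint induction), for MEF2C (blue circles), ICN (green squares) and MEF2C+ICN (red diamonds), with bars for 1 SE and filled symbols where the adjusted p was under 0.05. *IFI44L* lies at -2.13 with both constructs and 0.79 with ICN, and *IFI44* at -1.53, 0.03 and -0.59 with both, ICN and MEF2C.

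The joint effect was then set against each single effect as a difference of effects in the same model. Against ICN induction 12 members were lower (31.6%, against 6.08% of all genes) and 1 was higher (2.63%, against 4.06%). *IFI44L* differed most (-2.92 ± 0.27, adjusted p = 1.1e-08), followed by *IFI44* (-1.56 ± 0.13), *IFITM1* (-1.55 ± 0.09), *IFI6* (-1.14 ± 0.12), *IFITM3* and *IFITM2* (both -1.0 ± 0.08), *SAMD9L* (-0.84 ± 0.12) and *IFIT2* (-0.84 ± 0.23). The call of *IFIT2* was lost (adjusted p = 0.055 to 0.067) without replicate 3 of the MEF2C+ICN line with dox or replicate 1 of the ICN line without or with dox, and *SAMD9L* was not called by its probe set of largest variance (adjusted p = 0.066). For *IFI44L* and *IFI6* the single and joint effects had opposite signs and each passed its own test. *IRF1* was the 1 member with a more positive joint effect (0.60 ± 0.11, adjusted p = 0.00054), and its uninduced level was 0.70 ± 0.08 lower in the MEF2C+ICN line than in the ICN line.

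Against MEF2C induction in medium 13 members were lower (34.2%, against 7.53%) and 3 were higher (7.89%, against 2.94%). The lower ones were led by *IFI44L* (-1.65 ± 0.27, adjusted p = 8.6e-05), *IFITM1* (-1.16 ± 0.09), *IFI44* (-0.94 ± 0.13), *TAP1* (-0.91 ± 0.11), *IFIT2* (-0.84 ± 0.23) and *IFITM2* (-0.84 ± 0.08). The 3 higher ones were *IRF1* (1.18 ± 0.11, adjusted p = 1.6e-08), *IFIT3* (1.05 ± 0.13) and *IRF7* (0.41 ± 0.12). The call of *IFIT2* was again lost without replicate 3 of the MEF2C+ICN line with dox (adjusted p = 0.066), and without replicate 1 of the MEF2C line without dox (adjusted p = 0.065). Both differences use the same 6 arrays of the MEF2C+ICN line, so they are not independent of each other. The lines also differ in transduction and in their uninduced levels. The time with dox is known only for the MEF2C line (24 h), so it may differ between the effects compared. As a check of the constructs, the Notch target *HEY1* rose by 4.96 with ICN, the most of 12 listed Notch targets, and by 2.26 with both. Of these 12 targets 5 rose with ICN (41.7%, against 6.44% of all genes) and 0 fell (against 9.42%). With both constructs 5 rose (41.7%, against 5.84%) and 0 fell (against 10.9%). Of 3 *MEF2C* probe sets 2 fell over the 3 cultures (-1.06 and -1.07) while the third rose (0.79). With both constructs the same 2 fell (-2.21 and -2.28) and the third rose (0.66). The paper states that most *MEF2C* probe sets lie outside the cloned sequence and read the cell's own *MEF2C*, while 1 also covers the construct. It reports that induction represses the cell's own *MEF2C*. The brighter *NOTCH1* probe set was flat with ICN (0.01) and the dimmer rose (0.56, adjusted p = 0.013 in limma). The arrays do not show directly how much of each protein was made.

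On OP9-GFP stroma the called members were nearly all lower than in medium, among them the RNA sensor *IFIH1*, its partner helicase *DDX60* and the immunoproteasome gene *PSMB9*. Without dox 13 members were lower on OP9-GFP than in medium (34.2%, against 11.5% of all genes) and 1 was higher (2.63%, against 10.8%), with a median of -0.13 (all genes, -0.01). *BST2* read 7.79, 7.76 and 7.91 in medium and 7.24, 6.79 and 7.18 on OP9-GFP (-0.75 ± 0.13, adjusted p = 0.00013). *DDX60* read 7.27, 7.38 and 7.14 against 6.63, 6.79 and 6.21 (-0.72 ± 0.10, adjusted p = 9.5e-06). *IFI44L* read 4.13, 4.10 and 4.27 against 3.58, 3.46 and 3.40 (-0.69 ± 0.19, adjusted p = 0.01). *IFIH1* (-0.65 ± 0.12) and *PSMB9* (-0.65 ± 0.06) followed, and the 1 higher member was *ISG15* (0.24 ± 0.08, adjusted p = 0.037). The groups did not overlap for any of these. The count went from 14 to 9 without replicate 3 of either group, and to 7 when the 6 arrays were fitted alone.

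With dox 11 members were lower on OP9-GFP (28.9%, against 13% of all genes) and 0 were higher (7.64%), with a median of -0.17 (all genes, -0.02). The highest was *ISG15* (0.21 ± 0.08, adjusted p = 0.071). *IFIH1* read 6.97, 7.04 and 7.19 in medium and 6.33, 6.42 and 6.24 on OP9-GFP (-0.74 ± 0.12, adjusted p = 5.6e-05), though the mean of its probe sets differed by only -0.12 (adjusted p = 0.52). *PSMB9* read 10.94, 10.89 and 10.79 against 10.20, 10.19 and 10.13 (-0.70 ± 0.06, adjusted p = 4.8e-09), *TAP1* differed by -0.53 ± 0.08 and *DDX60* by -0.50 ± 0.10. In 2 sets of arrays that share no array, 6 members were lower on OP9-GFP both without and with dox, namely *HERC5*, *HERC6*, *IFIH1*, *DDX60*, *PSMB9* and *IFI6*. They are 6 of the 13 and 6 of the 11, and 15.8% of the members against 8.76% of all genes that were lower in both. The 29 measured stromal markers had mean levels of 4.91 to 4.98 per array in medium and 4.95 to 5.14 on OP9-GFP without dox, and 4.77 to 4.80 and 4.78 to 4.86 with dox. Without dox 5 of these markers were higher (17.2%, against 10.8% of all genes) and 4 lower (13.8%, against 11.5%). With dox 4 were higher (13.8%, against 7.64%) and 4 lower (13.8%, against 13%). Of the 29 markers 14 stayed under 5 in all groups. Their part in the result was not tested, and the sources used here do not say how LOUCY cells were separated from the mouse stroma.

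Between the stromas only the *IFITM* genes were called in the model of all 30 arrays. Their probe sets can match more than 1 transcript, so these 3 calls may not be separate measurements. Fitted on the groups compared alone, 0 members were called without dox and 1 with dox, and 5 were called with dox when probe sets with a mean under 5 were left out. On OP9-DL1, which activates Notch, 3 members were higher than on OP9-GFP without dox (7.89%, against 1.02% of all genes) and 0 were lower (0.612%), where 7 had an unadjusted p under 0.05. *IFITM1* read 12.89, 12.73 and 12.60 on OP9-DL1 and 12.19, 12.08 and 11.97 on OP9-GFP (0.66 ± 0.07, adjusted p = 6.2e-07; 0.083 when the 6 arrays were fitted alone). *IFITM3* differed by 0.39 ± 0.05 and *IFITM2* by 0.34 ± 0.06. With dox the same 3 genes were higher (7.89%, against 0.92%) and 0 were lower (0.48%; 8 members had an unadjusted p under 0.05). *IFITM1* then read 11.71, 11.71 and 11.69 against 11.26, 11.19 and 11.17 (0.50 ± 0.07, adjusted p = 4.9e-05), *IFITM2* differed by 0.26 ± 0.06 and *IFITM3* by 0.24 ± 0.05. Without replicate 1 on OP9-DL1, or replicate 2 or 3 on OP9-GFP, 1 of these 3 calls with dox remained. The lowest members were *MX1* without dox (-0.27 ± 0.14, adjusted p = 0.46) and *SAMD9L* with dox (-0.30 ± 0.09, adjusted p = 0.10).

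The uninduced lines differed from each other as well. In the ICN line 14 members were higher than in the MEF2C line in medium without dox (36.8%, against 12.9% of all genes) and 7 were lower (18.4%, against 12.3%). *TRIM22* read 9.75, 9.82 and 9.62 in the ICN line and 8.34, 8.53 and 8.39 in the MEF2C line (1.31 ± 0.08, adjusted p = 6.5e-12). *OAS1*, which makes the activator of RNase L, read 5.49, 5.33 and 5.31 against 4.57, 4.51 and 4.23 (0.94 ± 0.15, adjusted p = 5.4e-05), *IFI44L* differed by 0.69 ± 0.19, *IRF1* by 0.66 ± 0.08 and *OAS3* by 0.63 ± 0.13. The ICN line was above the MEF2C line in every array for each of these 5 genes. *PSMB9* (-0.51 ± 0.06), *TAP1* (-0.41 ± 0.08) and the 3 *IFITM* genes (-0.29 to -0.22) were among the 7 lower members.

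In the MEF2C+ICN line 8 members were higher than in the MEF2C line (21.1%, against 12% of all genes) and 5 were lower (13.2%, against 11.9%). The higher ones were led by *IFI44L* (1.47 ± 0.19) and *IFIT2*, which read 6.88, 6.87 and 6.88 against 5.74, 5.96 and 5.85 (1.03 ± 0.16, adjusted p = 3.7e-05). Against the ICN line 2 members were higher (5.26%, against 3.73%), *IFIT1* (0.80 ± 0.15) and *IFI44L* (0.78 ± 0.19), and 5 were lower (13.2%, against 5.15%), led by *TRIM22* (-1.29 ± 0.08), *OAS1* (-0.76 ± 0.15) and *IRF1* (-0.70 ± 0.08). The second probe set of *OAS1* gave no call there, with a difference of 0.00. These 3 comparisons share their groups in pairs. Construct and transduced line cannot be told apart, and the Notch target *HES1* was already 4.61 higher in the uninduced ICN line and 3.75 higher in the uninduced MEF2C+ICN line than in the MEF2C line. Of the 12 listed Notch targets 6 were higher in the ICN line (50%, against 12.9%) and 0 lower (against 12.3%). In the MEF2C+ICN line 2 were higher (16.7%, against 12%) and 1 was lower (8.33%, against 11.9%).

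The interferons themselves were dim on these arrays. Of 18 measured interferon genes 17 had group means under 5 in all 10 groups, and *IFNA17* reached 5.14. The 6 receptor genes were at 5 or more in every group. *IFNAR1* fell with MEF2C over the 3 cultures (-0.32, adjusted p = 0.0012) and rose with ICN (0.52, adjusted p = 9.6e-06), and its joint effect differed from the ICN effect by -0.72 (adjusted p = 1.9e-05). *IFNGR1*, of the interferon-gamma receptor, rose with ICN (0.36, adjusted p = 0.00091), whereas *IFNAR2* (0.02) and *IFNGR2* (0.07) were not called there. *JAK1* fell with MEF2C (-0.34, adjusted p = 0.00037) and rose with ICN (0.66, adjusted p = 2e-06) and with both (0.34, adjusted p = 0.0063). *TYK2* was called with both constructs (0.28, adjusted p = 0.024).

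Of 15 measured genes of JAK-STAT and IRF signalling 5 rose (33.3%, against 6.44% of all genes) and 1 fell (6.67%, against 9.42%) with ICN, and 4 rose (26.7%, against 5.84%) and 2 fell (13.3%, against 10.9%) with both. *IRF8*, a factor of the myeloid and B lineages, rose with MEF2C over the 3 cultures (1.38 ± 0.11), with ICN (1.59 ± 0.18) and with both (1.09 ± 0.18). *PTPN6*, a phosphatase that dampens JAK-STAT signalling, rose with ICN (1.36 ± 0.11) and both (1.38 ± 0.11), and *IRF5* fell (-1.19 ± 0.09 and -1.11 ± 0.09). Of 21 nucleic acid sensing genes 1 rose (4.76%, against 5.84%) and 6 fell (28.6%, against 10.9%) with both constructs, with 0 of them beyond 0.6. Of 46 further interferon-stimulated genes outside the list, 6 rose (13%, against 6.44%) and 6 fell (13%, against 9.42%) with ICN. With both, 2 rose (4.35%) and 5 fell (10.9%), shares at or below those of all genes (5.84% and 10.9%). Their median with joint induction was -0.02, near the 0.02 of all genes. Among them *TRIM14* (-0.82 ± 0.07) and *DDX60L* (-0.81 ± 0.11) fell with both constructs, and the guanylate-binding protein *GBP5* fell with ICN (-0.65 ± 0.15) and rose with both (1.00 ± 0.15). On OP9-DL1 *GBP5* and *GBP2* were higher than on OP9-GFP without dox (0.84 ± 0.15 and 0.90 ± 0.14) and with dox (1.39 ± 0.15 and 1.31 ± 0.14). Without dox 3 of the 46 were higher on OP9-DL1 (6.52%, against 1.02% of all genes), by up to 1.14, and 0 were lower (against 0.612%). With dox 2 were higher (4.35%, against 0.92%) and 0 lower (against 0.48%).

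MHC class I presentation, which interferon also raises, showed its largest count on stroma. Of 17 measured genes 12 were lower on OP9-GFP than in medium without dox (70.6%, against 11.5% of all genes) and 0 were higher (against 10.8%), with a median of -0.37. With dox 9 were lower (52.9%, against 13%) and 0 were higher (against 7.64%), with a median of -0.21. *HLA-F* differed by -0.60 ± 0.08 without dox. *NLRC5*, the activator of MHC class I genes, fell with ICN (-1.12 ± 0.08) and with both constructs (-0.91 ± 0.08), where 6 of the 17 fell (35.3%, against 10.9%) and 2 rose (11.8%, against 5.84%).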

How the data were processed

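RNA of 30 samples of LOUCY lines was hybridised to Affymetrix HG U133 Plus 2.0 arrays. The authors made the deposited log2 values with RMA, which corrects background, normalizes quantiles and summarizes probes by median polish (affy 1.64.0 in R 3.6.3 per the submitters' processing notes) and hides changes in total RNA. An array has no read depth, and the number of arrays limits the precision. Values were used as deposited, and groups came from the labels. Of 54675 probe sets, 62 controls were left out, 41097 have 1 symbol in the platform annotation, 1801 have several, from which no gene was named, and 11777 are not listed there.

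limma 3.58.1 in R 4.3.3 tested all 54613 probe sets with Benjamini-Hochberg adjustment. The 9 against 9 comparison used those 18 arrays without a covariate, as in the study's methods, and the others used 1 model of 10 group means over 30 arrays. Named members are those called with a log2 difference beyond 0.6 (at most 12 each way) and the largest each way where fewer than 3 were called, and other members given with values were chosen after their values were seen. The members, lists and comparisons were chosen with earlier results of these data known. Alternatives covered filtering, scaling, the variance prior, probe set choice, thresholds, the replicate block, the arrays fitted, culture as a covariate and leaving out arrays or cultures. The steps were tested on simulated data.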

Additional observations from a re-analysis of the deposited data

Results flagged for a closer look

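Several effects of dox differed between lines or cultures by a test of the difference itself in limma. Joint induction against ICN induction gave *IFI44L* -2.92, *IFI44* -1.56, *IFITM1* -1.55, *IFI6* -1.14, *IFITM3* -1.0, *IFITM2* -1.0, *SAMD9L* -0.84 and *IFIT2* -0.84 on the log2 scale. Joint induction against MEF2C induction in medium gave *IFI44L* -1.65, *IRF1* 1.18, *IFITM1* -1.16, *IFIT3* 1.05, *IFI44* -0.94, *TAP1* -0.91, *IFIT2* -0.84 and *IFITM2* -0.84. The effect on OP9-GFP against that in medium gave *TAP1* -0.50. A search for single far arrays in 14 groups of 9 arrays (the 7 members called over the 3 cultures, without and with dox) found 0. Each group of 9 pooled the 3 cultures, whose differences widen its range, so the search could miss a far array within a culture. It covered no other member and no other line. Of all replicate pairs, arrays 2 and 3 on OP9-GFP without dox agreed least (correlation 0.9905, SD of the difference 0.343).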

How the results depend on the processing

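Of 66 differences of named members, 54 kept their direction and call under the alternatives run and each left-out array, and 0 reversed. Leaving out probe sets with a mean under 5 removed *IFI44L*, *IFIT3* and *OAS1*. Their differences were therefore judged under 8 alternatives and not under that filter. Of 584 values under other settings 575 were kept, and of 543 with an array left out 525. *IFIT1*, *IFIT2*, *IFIH1*, *SAMD9L*, *OAS1* and *IFITM1* (OP9-DL1 against OP9-GFP) account for the lost calls, and their cause was not tested.

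The study's criteria (log2 beyond 0.6, p under 0.05 and adjusted p under 0.1) are stricter in size and gave fewer members: 1 over the 3 cultures, 0 in medium, 1 on OP9-GFP, 2 on OP9-DL1, 6 with ICN and 11 with both, 5 and 2 for OP9-GFP against medium without and with dox, 1 and 0 for OP9-DL1 against OP9-GFP, 5 and 2 for the ICN and MEF2C+ICN lines against the MEF2C line, and 0 for the difference of dox effects between OP9-GFP and medium. Fitting only the groups compared gave 4 for dox on OP9-GFP, 7 for OP9-GFP against medium without dox, 0 and 1 for OP9-DL1 against OP9-GFP and 0 for the difference between OP9-GFP and medium. That difference rose from 1 to 2 without probe sets under 5, with a trended and robust prior and with the mean of probe sets. Without probe sets under 5, OP9-DL1 against OP9-GFP with dox gave 5. The mean of probe sets gave 11 for the MEF2C+ICN against the ICN line, and the probe set of largest variance gave 1 for the difference between OP9-DL1 and OP9-GFP. Culture as a covariate gave 10 over the 3 cultures. A spacer of 1 to 3 bases raised the members with an ISRE core from 22 to 25.

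With an array left out (over the 3 cultures, all arrays of 1 replicate number), the counts were 5 to 5 over the 3 cultures, 8 to 10 in medium, 4 to 8 on OP9-GFP, 5 to 5 on OP9-DL1, 11 to 13 with ICN, 19 to 22 with both, 9 to 11 and 8 to 11 for OP9-GFP against medium, 3 to 3 and 1 to 3 for OP9-DL1 against OP9-GFP, 17 to 20, 9 to 11 and 6 to 7 for the lines, and 0 to 2, 0 to 0, 13 to 17 and 11 to 15 for the differences of effects.

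Replicate numbers were not used to pair the arrays in the main fits, and no comparison had 3 correlations of same-numbered deviations over 0.1. These correlations ran from -0.365 to 0.187, and such a cutoff cannot exclude pairing. With the replicate block, 6 members were called over the 3 cultures and 15 for the MEF2C+ICN against the MEF2C line, and the other counts did not move.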
